A study of Saccharomyces cerevisiae with 15 samples.

Results

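The 4 arrays described here measured where Ifh1 sits on the genome of growing budding yeast (Saccharomyces cerevisiae). They are the arrays titled Ifh1- among the 15 of the series, taken by title. On each array, chromatin of a W303 strain in which IFH1 carries 13 copies of the myc epitope, with the TRP1MX6 marker (W303+IFH1-13myc-TRP1MX6), was set against chromatin of untagged W303. Both were precipitated with an antibody against myc (chromatin immunoprecipitation, ChIP). The cells grew in rich medium (YPD) at 30 °C without drug and were crosslinked for 30 min. The other groups used for comparison were 3 arrays of W303+FHL1-13myc-HIS3MX6 without drug, 5 of the same strain with rapamycin at 200 ng/mL, and 3 of the Ifh1 strain with that dose. The reference thus lacks both the epitope and the marker. The labels call the arrays biological replicates, and do not say how many clones of the tagged strain were used.

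Ifh1 is a coactivator of cytosolic ribosomal protein (RP) genes. It is held at their promoters through Fhl1, a protein with forkhead and forkhead-associated domains, together with factors such as Rap1. Growth signals through the TOR kinases, which rapamycin inhibits, promote this binding, and Crf1 competes with Ifh1 for Fhl1. Most RP genes of yeast exist as pairs of near-identical copies, and a smaller set carries sites for Abf1.

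The table held 6803 probes, most of them regions between genes. Values are log2 ratios, centred on each array's median, so 0 is the middle probe of an array. Which channel was the numerator is not settled by the labels, which mention 1 dye swap per condition without naming the array. Each array was therefore turned so that the median of probes facing the 5′ ends of RPL genes, which encode large-subunit proteins, was positive. Replicates 1 and 3 changed sign and replicates 2 and 4 did not, an even split that 1 dye swap does not by itself give. The direction of the RPL probes is thus fixed by construction, and with the opposite sign every value below would be its negative. Small-subunit RP genes and all other regions were not used for the turn, apart from divergent regions shared with an RPL gene. Where a region lies between divergent genes, both names are given with a slash, and the array cannot say to which gene a value belongs.

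RP promoters led the genome-wide ranking. In limma's test against 0, 24 of 6803 probes had an adjusted p under 0.05 (0.353% of the probes), all 24 were higher and all 24 faced the 5′ end of an RP gene. Of these, 16 faced large-subunit and 9 small-subunit genes, 1 of them both. RP promoters made up 132 of the 6803 probes. The turn set the direction of RPL probes as a group, so that the large-subunit calls were higher is no result of the test. The small-subunit calls, apart from the shared region, were not used for the turn. At an unadjusted p under 0.05 there were 501 probes, and no probe was called lower. The called means ran from 1.27 to 2.15, ratios of 2.41-fold to 4.44-fold, and all 24 probes lay above 0 on all 4 arrays. The lowest of their single-array values was 0.22 and the highest 3.60. Leaving out replicate 1, 2, 3 or 4 gave 14, 7, 10 or 6 calls, of which 9, 6, 10 and 6 were among the 24; without replicate 1, 2 of the 14 were lower. With only these 4 arrays in the fit, 0 probes were called by limma, with 420 at an unadjusted p under 0.05.

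**Figure D1:**
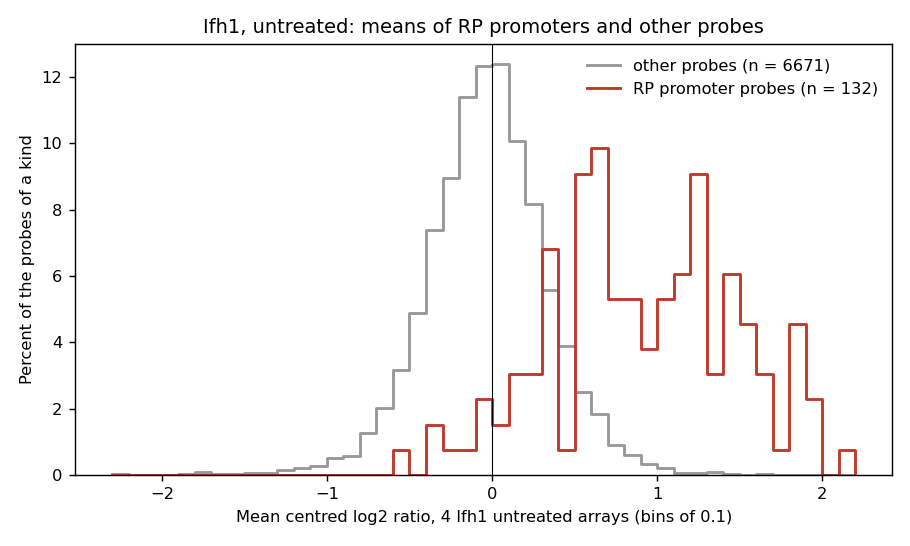
Distribution of the mean centred log2 ratio over the 4 Ifh1 untreated arrays (x axis, bins of 0.1), as percent of the 132 RP promoter probes (red) and of the 6671 other probes (grey). The grey curve is centred near 0, while the red curve has its median at 0.88 and reaches 2.15.

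The highest mean belonged to the region between RPL42B, a large-subunit protein gene, and CHS7, which encodes a chaperone for the export of a chitin synthase. It stood at 2.51, 2.19, 1.82 and 2.10 on replicates 1 to 4, a narrow spread, and its mean was 2.15 ± 0.28 (SD, n = 4; adjusted p = 0.000208). The region between RXT3, a subunit of a histone deacetylase complex, and RPL31A came second at 1.11, 3.03, 2.25 and 1.58 (mean 1.99 ± 0.84, adjusted p = 0.0378). Its arrays differ far more than those of RPL42B/CHS7, with replicate 2 the highest and replicate 1 the lowest. RPS27B stood at 1.45, 2.10, 2.78 and 1.28 (1.90 ± 0.68, adjusted p = 0.00528). RPS24B stood at 1.68, 2.50, 1.55 and 1.88 (1.90 ± 0.42, adjusted p = 0.012). RPS27B and RPS24B did not contribute to the turn, and both promoters lay above 1 on every array.

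Large-subunit genes filled most of the next places. RPL34B had 2.52, 1.76, 1.704 and 1.62 (1.90 ± 0.42, adjusted p = 0.0437), with replicate 1 apart from the other arrays. RPL35A had 1.24, 3.60, 0.87 and 1.82 (1.88 ± 1.21, adjusted p = 0.0327), the largest SD among the called probes. RPL2A had 2.60, 1.25, 1.85 and 1.61 (1.83 ± 0.57, adjusted p = 0.0274). After it came RPS19B (1.81 ± 0.58), RPL20B (1.81 ± 0.30) and RPS21B/LCB3 (1.73 ± 0.70, adjusted p = 0.00528), where LCB3 encodes a phosphatase of sphingoid bases. RPS6A was the most uneven of the called small-subunit promoters, with 2.66, 0.22, 2.52 and 1.27, and passed at an adjusted p of 0.0437. RPL16A was the most even of all called probes, with 1.73, 1.41, 1.76 and 1.44 (1.58 ± 0.19, adjusted p = 0.00412).

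The others of the 20 called probes with the highest means were RPL31B/GAG1 (1.67 ± 0.62), RPL33B/IRC13 (1.61 ± 0.21), RPL2B (1.57 ± 0.55), TDA3/RPL27A (1.51 ± 0.50), MRM2/RPL1B (1.48 ± 0.77), RPL13B/RPS16A (1.47 ± 0.30) and YML6/RPS17A (1.46 ± 0.44). RPL13B/RPS16A is a divergent pair of RP genes, so large- and small-subunit genes share that value. YML6 encodes a mitochondrial RP, and its region is the single call in the mitochondrial RP list. The last 4 calls were RPL17A, ATG27/RPL17B, YGR117C/RPS23A and RPL21A, with means from 1.27 to 1.45. Just inside the threshold were RPL34B and RPL17A, both at an adjusted p of 0.0437, and just outside it RPL12B (1.28 ± 0.29, adjusted p = 0.0504) and the intron of NOG2 (adjusted p = 0.0507).

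**Figure D2:**
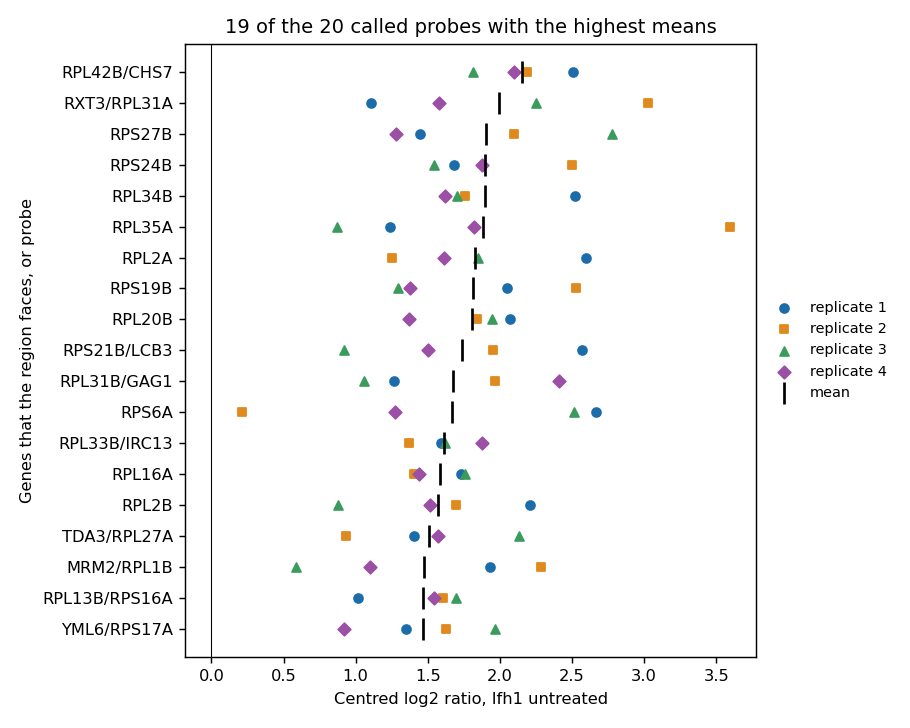
Centred log2 ratio (x axis) of 19 of the 20 called probes with the highest means on each of the 4 Ifh1 untreated arrays (coloured points), with the mean as a black bar. Every point lies above 0, and the lowest is RPS6A on replicate 2 at 0.22.

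In all, 135 of 137 RP genes had a facing probe, on 132 probes. The median of the means was 1.03 over 79 large-subunit probes and 0.80 over 57 small-subunit probes, against -0.02 over all probes. The small-subunit median was similar on each array, at 0.83, 0.83, 0.92 and 0.92. Of the 57 small-subunit probes, 37 lay above 0 on all 4 arrays (64.9%), where 7.72% of all probes did, and 0 lay below 0 on all 4, where 6.7% of all probes did. Over all 132 RP probes, whose direction the turn partly fixed, the count above 0 was 93. The 5 divergent regions that face 2 RP genes had a median of 1.17, the 66 that face an RP gene and another gene 0.89, and the 61 that face an RP gene alone 0.82.

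RP promoters differed widely among themselves. The middle of the list held means near 0.88, while 27 of 132 had a mean between -0.5 and 0.5. Some regions with a high mean and a wide spread between arrays did not pass the test. RPL24A/RPL30, for instance, stood at 2.79, 1.48, 1.495 and 0.76 (1.63 ± 0.84, adjusted p = 0.183), and RPL12A at 1.83, 2.67, 1.78 and -0.04 (1.56 ± 1.14, adjusted p = 0.186). These 2 were chosen after their values were seen. Copies of a pair could lie close together or far apart: RPL2A and RPL2B were both called, whereas RPL35A had a mean of 1.88 and RPL35B, also picked after its values were seen, 0.03 ± 0.32 (adjusted p = 0.99). The difference between copies was not tested.

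The lowest RP promoters were RPL4A (-0.60 ± 1.77), RPL15B (-0.31 ± 1.08), RPL1A (-0.31 ± 0.34), RPS28B (-0.28 ± 0.32) and RPS21A (-0.10 ± 1.01), all with an adjusted p of 0.912 or more. Their arrays straddled 0; RPL4A, for example, stood at -1.16, 1.04, 0.55 and -2.84. RPL4A and RPS28B also belong to the list of 6 RP genes with Abf1 sites. In that list 0 of 6 probes were called by limma, where 0.353% of all probes were, and 0 lay above 0 on all arrays, where 7.72% of all probes did. With 6 probes, such counts do not set the list apart from other probes. Its median was 0.11, with -0.06, 1.21, -0.09 and -0.32 on replicates 1 to 4. Its highest member was YOR062C/RPL3, with -0.27, 1.37, 0.23 and 1.66 (0.75 ± 0.91, adjusted p = 0.702).

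Down the ranking of means, RP promoters held all of the 10 highest places, 19 of the first 20, 40 of the first 50, 62 of the first 100 and 102 of the first 500. The turn fixed the direction of the large-subunit probes as a group, so the end at which they stand is no result. With no array turned, opposite signs were averaged, and 2 RP probes were among the 100 highest. Single arrays were noisier than their mean. Among the 100 highest probes of one array, 39, 19, 34 and 11 were RP promoters on replicates 1 to 4. Replicate 4 had the widest tails, with 58 probes below -3 (4, 2 and 0 on replicates 1, 2 and 3), none of them an RP promoter. Between any pair of the arrays, the correlation across the 132 RP probes lay between 0.21 and 0.48 (Pearson), and across the other probes between -0.10 and 0.09. Across those other probes, replicate 4 correlated with single Fhl1 arrays from -0.37 (rapamycin replicate 3) to 0.24 (untreated replicate 3). These correlations describe probes that share arrays and are not independent replicates.

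Of the 13 probes among the highest 5% on all 4 arrays, 13 faced RP genes, among them large-subunit genes whose direction the turn fixed. Of the 25 among the highest 10% on all 4, 24 did. The exception lay upstream of GLG2, which encodes glycogenin, the primer of glycogen synthesis. That region also borders the 3′ end of RPS21B, and its values were 0.84, 1.02, 1.09 and 1.39 (1.09 ± 0.23, adjusted p = 0.112). Its evenness between arrays was like that of RPL42B/CHS7 or RPL16A, but it did not pass the test. On the 3 Fhl1 untreated arrays it averaged 0.56 ± 0.75.

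Outside RP promoters no probe was called by limma, though the NOG2 intron passed under 4 of 7 other turns of the Ifh1 rapamycin arrays, which share the estimate of the spread (adjusted p = 0.0468 or 0.0488). The 15 regions with the highest means among those above 0 on all 4 arrays ran from 1.01 to 1.43. The first was a region upstream of GAC1, a regulatory subunit of protein phosphatase 1 that promotes glycogen accumulation, with 0.57, 1.59, 1.26 and 2.32 (1.43 ± 0.73, adjusted p = 0.103). SCM4, which encodes a protein of the mitochondrial outer membrane, followed with 1.03, 1.77, 1.93 and 0.76 (1.37 ± 0.56, adjusted p = 0.177). The values of SCM4 overlapped those of many called RP promoters, while its mean on the Fhl1 untreated arrays was -0.44 ± 0.96. The intron of NOG2, a GTPase of large-subunit assembly, stood at 0.86, 1.15, 0.61 and 1.68 (1.08 ± 0.46), and its mean with Fhl1 was 0.10 ± 0.29. That intron was the closest to the threshold outside RP promoters.

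The reading-frame probe of IRC13 lies next to the called region RPL33B/IRC13. It stood at 1.18, 2.16, 0.37 and 1.23 (1.24 ± 0.73, adjusted p = 0.0772), and with Fhl1 at 1.26 ± 0.76. TKL2/TEF2, between a transketolase gene and a gene of translation elongation factor 1A, had 1.12, 0.69, 1.44 and 0.85 (1.02 ± 0.33, adjusted p = 0.251). Others of the 15 were ATG17/SPP382 (1.17 ± 0.59), with ATG17 an autophagy scaffold; ATP14/YLR296W (1.09 ± 0.86), with ATP14 a subunit of ATP synthase; and ARC35 (1.08 ± 0.60), a subunit of the Arp2/3 actin-nucleating complex. The region between YNL105W and LEU4 (1.30 ± 1.19), the probe iYMR306C-A, which could not be placed (1.30 ± 0.96), a region beside a threonine tRNA gene, itT(AGU)O1 (1.18 ± 0.63), and the promoters of EUC1 (1.03 ± 1.10), the tRNA gene YNCP0016W (1.01 ± 1.06) and AFI1 (1.01 ± 0.83) complete the set. Of these 15, 6 had a mean above 0.5 on the Fhl1 untreated arrays and 5 had a mean below 0, with a median of 0.31. The share of all probes above 0.5 there was not counted, so these counts do not show an overlap with Fhl1.

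**Figure D3:**
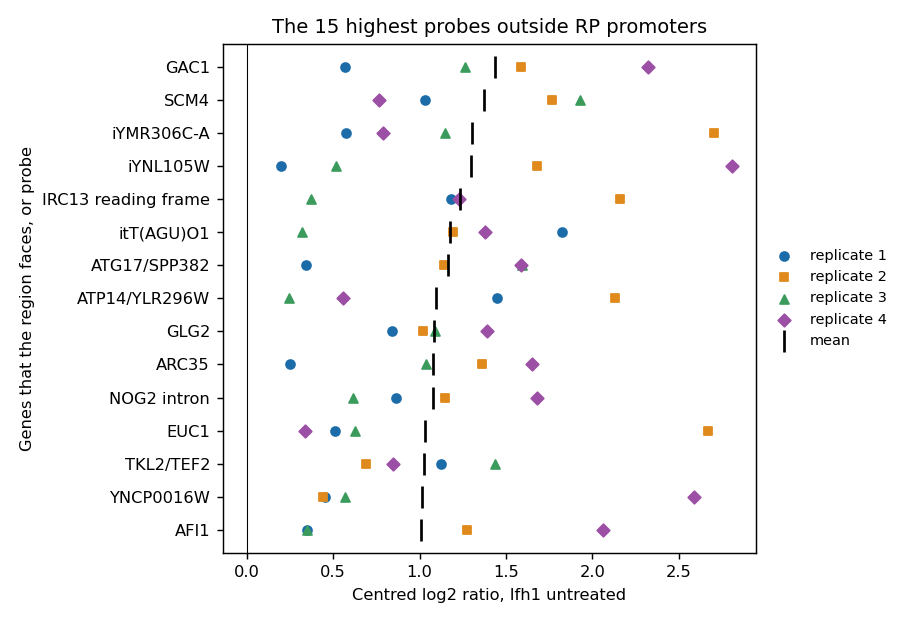
Centred log2 ratio (x axis) on each Ifh1 untreated array of the 15 probes with the highest means outside RP promoters and above 0 on all arrays, with the mean as a black bar. GLG2 and TKL2/TEF2 have close points, whereas EUC1 and YNCP0016W each have 1 array far above the others.

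Around RP genes, medians were highest on the 5′ side, where the turn partly fixed the direction. The 57 small-subunit 5′ probes, used for the turn only where shared with an RPL gene, had a median of 0.80. Probes that border an RP gene only at its 3′ end (123 probes) had a median of 0.14. Of these 0 were called, where 0.353% of all probes were. Introns of RP genes lay between, with a median of 0.52 over 11 probes, of which 5 were above 0 on all arrays and 0 were called; 10 introns of other genes had a median of 0.06. Farther out, the median was 0.07 for regions 1 gene away from an RP promoter region, -0.01 at 2 genes, -0.04 at 3 genes and -0.05 at 4 or more genes or on a chromosome without one. These groups hold 231, 232, 213 and 4991 probes, and the first shares members with the 3′ group. The differences between these groups were not tested.

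**Figure D4:**
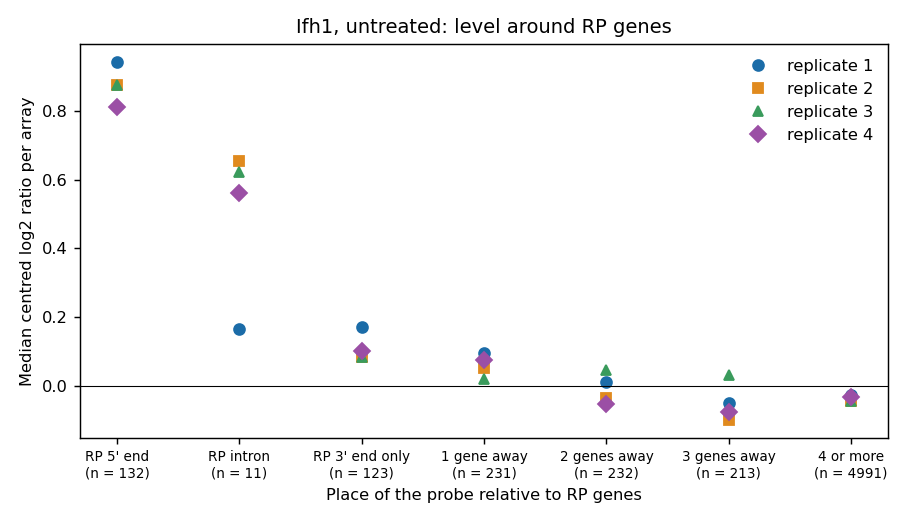
Median centred log2 ratio of each Ifh1 untreated array (points, y axis) for probes grouped by their place relative to RP genes (x axis, with the number of probes). The 4 arrays sit between 0.81 and 0.94 at RP 5′ ends, and at or below 0.17 for probes at RP 3′ ends only. The turn partly fixed the direction of the RP 5′ group.

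Other classes of region had medians nearer the middle of the arrays, and 0 of their probes were called, where 0.353% of all probes were. Intergenic regions facing 1 gene, 2 genes or no gene, RP genes left out, had medians of -0.04, -0.01 and -0.08. The 42 tRNA genes had a median of 0.24, with 0.48, 0.19, 0.10 and -0.002 on replicates 1 to 4, and 250 regions beside tRNA genes 0.11. Above 0 on all 4 arrays were 11 of the 42 (26.2%) and 39 of the 250 (15.6%), against 7.72% of all probes. Below 0 on all 4 arrays were 0 of the 42 and 2 of the 250, against 6.7% of all probes. These differences from all probes were not tested. The 10 telomere probes had 0.36, with replicate 1 at -0.13. Of these, 6 come from 1 place, the right end of chromosome 15, with -0.17, 0.48, 1.02 and 0.10 on replicates 1 to 4. The 13 probes of ribosomal DNA, which encodes the ribosomal RNA, had a median of -0.16; replicate 3 stood at 0.79 and the others at -0.30, -0.30 and -0.51. Transposon remnants (0.07), centromeres (-0.03), small RNA genes (-0.04) and mitochondrial probes (0.03) were all close to 0.

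Other gene groups that serve growth had medians near 0. Each had 0 or 1 calls by limma, where 0.353% of all probes were called. Such counts do not set lists of this size apart from other probes. Among 136 probes of ribosome biogenesis genes, whose products assemble ribosomes, 0 were called and the median was -0.04. Of these probes 6.62% lay above 0 on all arrays, against 7.72% of all probes. The highest was RIO2, a kinase of small-subunit maturation (0.89 ± 0.36, adjusted p = 0.0772), and the lowest UTP21/VIP1 (-1.13 ± 2.29). Genes of RNA polymerases I and III had a median of -0.03 (0 of 38 called), from RPA49/CRS1 (0.59 ± 0.53) to RPC25/LTV1 (-0.98 ± 0.42). Translation factors had 0.04 (0 of 45), with TKL2/TEF2 highest and SSB2, a chaperone bound to ribosomes, lowest (-1.78 ± 3.15, or -0.21 without replicate 4). Of the 45, 7 lay above 0 on all arrays (15.6%) and 5 below 0 on all, against 7.72% and 6.7% of all probes. Mitochondrial RP genes had -0.17 (1 of 63, the shared YML6/RPS17A), and MRPL9 was lowest at -1.06 ± 1.19, or -0.47 without replicate 4. Of the 63, 2 lay above 0 on all arrays and 11 below 0 on all. The differences of these lists from all probes were not tested.

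Groups of metabolism and stress had medians likewise near 0, with 0 calls each by limma, where 0.353% of all probes were called. Glycolytic genes had a median of 0.10 over 26 probes, from TDH3, glyceraldehyde-3-phosphate dehydrogenase (0.81 ± 0.54), to HXK2, a hexokinase (-0.94 ± 0.93). Their median was 0.24, 0.34, 0.02 and -0.001 on replicates 1 to 4. Above 0 on all arrays were 4 of the 26 (15.4%), and 0 were below 0 on all. Of all probes 7.72% and 6.7% were, and the difference was not tested. Nitrogen catabolite genes had 0.06 over 36, from GDH1/YOR376W (0.78 ± 1.29) to PUT1 (-0.58 ± 0.56). Stress response genes had 0.07 over 43, from GAC1 to MSN2, a stress transcription factor (-0.60 ± 0.80). Histone genes had 0.07 over 7, from HTB1/HTA1 (0.39 ± 0.69) to CSE4, the centromeric histone H3 (-0.64 ± 0.71). Mating-type genes had -0.10 over 17, from MF(ALPHA)2/YGL088W (0.64 ± 0.88) to STE6, the exporter of a-factor (-0.72 ± 0.68).

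The genes that regulate RP transcription had a median of 0.17 over 12 probes, and 0 were called, where 0.353% of all probes were. IFH1/UCC1 stood at 0.32, 0.35, 0.51 and -0.72 (0.11 ± 0.56), and FHL1 at 0.29, 0.33, 0.13 and 0.16 (0.22 ± 0.10, adjusted p = 0.912). FHL1 was thus above 0 on every array, by a small and even amount that did not pass the test. SCH9 and SFP1 were also above 0 on every array, with higher means. In all, 3 of the 12 probes were (25.0%) and 0 were below 0 on every array, against 7.72% and 6.7% of all probes. The others ran from SCH9, a kinase downstream of TOR (0.54 ± 0.85), SFP1 (0.51 ± 0.28), ARG82/HMO1 (0.45 ± 0.44), FPR1, whose product binds rapamycin (0.34 ± 0.61), RAD27/ABF1 (0.32 ± 0.37) and PUS7/ESA1 (0.06 ± 0.39) down to ARP3/TOR1 (-0.19 ± 0.51), RAP1 (-0.22 ± 0.23), CRF1 (-0.45 ± 1.69) and RPD3, a histone deacetylase (-1.13 ± 1.92). Of loci that commonly differ between laboratory strains, CAN1/NPR2 was at 0.60 ± 0.27, ADE2 at 0.51 ± 0.70, MRM1/HIS3 at 0.41 ± 0.51, SOK1/TRP1 at 0.06 ± 0.89 and URA3 at -0.40 ± 0.97, with 0 calls.

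At the other end of the ranking, replicate 4 lay far below the other arrays at 5 of the 10 lowest probes that were below 0 on all arrays. The long terminal repeat YIRCdelta6 stood at -0.06, -1.60, -0.35 and -6.84 (-2.22 ± 3.16, adjusted p = 0.381). YMLCdelta1 (-1.76 ± 1.93), MRD1/PIS1 (-1.74 ± 2.34), TGL3/PRE5 (-1.702 ± 2.08) and the tRNA flank itL(UAA)J (-1.32 ± 1.96) had the same form, with replicate 4 at -4.23 or lower. Even values were found in YIP1/RBG2, between a gene of vesicle transport and a GTPase gene, with -1.39, -1.40, -1.03 and -1.83 (-1.41 ± 0.33, adjusted p = 0.112). The region between the 3′ end of MSL5 and the 3′ end of CLF1, both splicing factor genes, had -1.18, -1.35, -1.37 and -1.75 (-1.41 ± 0.24, adjusted p = 0.125). These were the 2 probes among the lowest 5% on all 4 arrays. The region between MNL2 and SHM2 (-1.29 ± 0.36), MDM38 (-1.28 ± 0.89) and YDR061W (-1.36 ± 1.11) complete the 10 lowest.

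Against Fhl1 in untreated cells, limma called 0 of 6803 probes (0.0%), with 281 at an unadjusted p under 0.05. The 24 probes called for Ifh1 all had means above 0.5 on the Fhl1 untreated arrays, with a median of 2.10, against 1.67 with Ifh1. This is a description only: the Fhl1 arrays were turned by the same RPL rule, and the 24 were picked for high Ifh1 values. Over all 132 RP probes, the medians of the 3 Fhl1 untreated arrays averaged 1.20. At the NOG2 intron the difference was 0.97 ± 0.35, and at YIP1/RBG2 it was -1.58 ± 0.53 (SE, adjusted p = 0.997 for both).

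**Figure D5:**
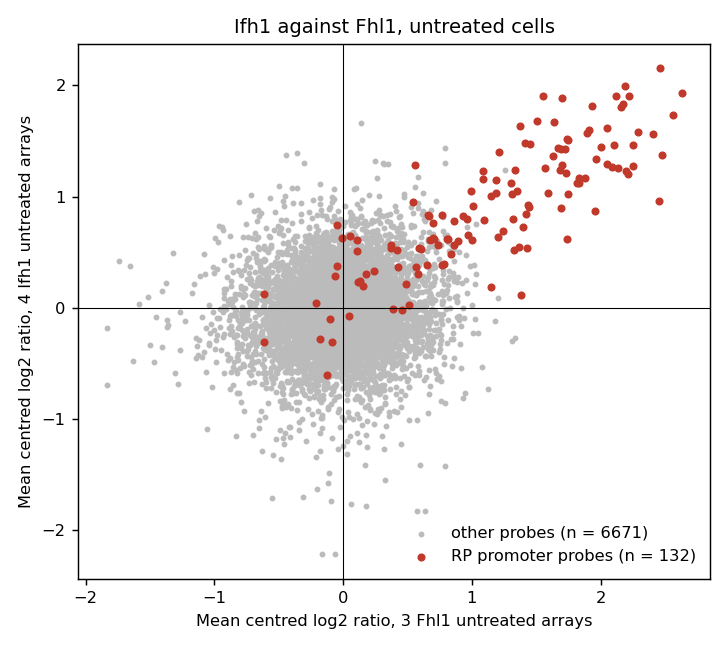
Mean centred log2 ratio of each probe on the 4 Ifh1 untreated arrays (y axis) and on the 3 Fhl1 untreated arrays (x axis), with 132 RP promoter probes in red and 6671 others in grey. Most red points lie to the upper right; RPL42B/CHS7, the highest with Ifh1 at 2.15, stands at 2.46 with Fhl1.

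Against the rapamycin arrays of Ifh1, limma called 1 of 6803 probes (0.0147%), with 411 at an unadjusted p under 0.05. That call was lost without replicate 2, 3 or 4, without centring, with no array turned and with array weights. The RP median on the rapamycin arrays was 0.01, 0.02 and 0.10, against 0.81 to 0.94 here, so the turn of those 3 arrays rests on a very small shift and their signs are not settled. All 7 other turns of these 3 arrays were therefore also fitted, a step chosen after seeing the data. The median of the 24 called probes on the rapamycin arrays was 0.01 as turned and -0.14 to 0.14 under the other turns, with 7 to 17 of the 24 above 0. At RPL42B/CHS7 the rapamycin mean was 0.51 ± 0.25 as turned, a difference of 1.64 ± 0.34 (SE, adjusted p = 0.221), and -0.51 with all 3 arrays reversed, a difference of 2.66 ± 0.34 (SE, adjusted p = 0.00379). With replicates 1 and 3 reversed its difference was 2.51 (adjusted p = 0.0165). Under those 2 turns it was the single call, and under the other 5 turns 0 probes were called, with 298 to 429 at an unadjusted p under 0.05. The call made with the arrays as first turned was thus lost under all 7 other turns.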

How the data were processed

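Per the labels, ChIP DNA of tagged and untagged cells was amplified by ligation-mediated PCR, labelled with Cy3 or Cy5 and scanned (GenePix 4000A, GenePix Pro 4.0). The deposited values are log2 ratios; 2 to the power of a value had 3 decimals for 100% of values (tolerance 0.002), which gives the base. Background correction, normalisation and build: not given in the sources used here, so no coordinates are printed. The medians of the 4 arrays as deposited were -0.88, -0.04, 1.11 and 1.74. Missing values (1 probe on replicate 1, 8 on replicate 4) were left out, so a mean there rests on fewer arrays.

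Each array was centred on its median and turned by its RPL probes, with no loess step. limma 3.58.1 (R 4.3.3; lmFit, eBayes) fitted 4 group means to all 15 arrays, which share one estimate of the spread; the mean of Ifh1 without drug was tested against 0 and against 2 other groups, two-sided, with Benjamini-Hochberg adjustment over 6803 probes. The script was tested on simulated data. The number of arrays limits the precision, and arrays may share a reference preparation.

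Probe names give 1 neighbouring reading frame each. The region lies on its higher-coordinate side: 41 of 50 genes with a gap over 200 bases only there had a probe (82.0%), against 4 of 54 for the other side (7.4%). Neighbours and names came from NCBI's table of assembly R64 (5337 of 5574 frames matched), with strand read from locus tags; of 5811 such regions 2816 faced 1 gene, 1516 faced 2, 1428 none, and 51 were not placed. An older name that is now a synonym of a gene with its own probe was not placed. The pattern for RP genes was narrowed after values were seen, because it had taken in RPP1, an RNase P subunit.

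Members and lists were chosen with earlier results of these data known. Named were the called probes, the 15 highest outside RP promoters above 0 on all arrays, the 10 lowest below 0 on all arrays, regulators, strain loci, the highest and lowest of each other list, the 5 lowest RP probes and the probes beside the threshold. Alternatives changed the centring, scale, turn, arrays, block, weights, moderation and probes; the 7 other turns of the Ifh1 rapamycin arrays were added after seeing the data. A gene that this rule names is not reported here.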

Additional observations from a re-analysis of the deposited data

Results flagged for a closer look

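Of 88 named probes with 4 values each, 10 had 1 array whose gap to the nearest other array, divided by the range, was above Dixon's 95% critical value; chance gives about 1 in 20. Replicate 4 was apart at 6 of them. It was low at SSB2 (-6.49, the others from -0.39 to 0.11), TGL3/PRE5 (-4.80), YMLCdelta1 (-4.64), MRPL9 (-2.83) and IFH1/UCC1 (-0.72, the others from 0.32 to 0.51), and high at YNCP0016W (2.59, the others from 0.44 to 0.57). Replicate 2 was high at EUC1 (2.67) and SCH9 (1.81). Replicate 1 was high at RPL34B (2.52, the others from 1.62 to 1.76) and at ARP3/TOR1 (0.57, the others from -0.53 to -0.39). Without the array that stood apart, the mean moved from -1.78 to -0.21 at SSB2, from -1.702 to -0.67 at TGL3/PRE5, from -1.76 to -0.80 at YMLCdelta1, from -1.06 to -0.47 at MRPL9, from 1.03 to 0.49 at EUC1, from 1.01 to 0.49 at YNCP0016W and from 0.54 to 0.12 at SCH9. It moved from 0.11 to 0.39 at IFH1/UCC1, from -0.19 to -0.44 at ARP3/TOR1 and from 1.90 to 1.69 at RPL34B.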

How the results depend on the processing

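The 24 calls became 0 without centring, 0 with the arrays as deposited, 0 with the 4 arrays alone and 6 to 14 without 1 replicate; they were 18 to 27 under the other alternatives. Without replicate 1, 5 calls lay outside RP promoters, among them ATG17/SPP382 (1.44) and ARC35 (1.35), and the NOG2 intron passed when arrays were centred on probes that face no RP gene (adjusted p = 0.0464). The call against rapamycin became 0 without centring, as deposited and with array weights, and was 0 to 1 without 1 replicate. With the Ifh1 rapamycin arrays turned in the 7 other ways, chosen after seeing the data, 0 or 1 probes were called against rapamycin. The probe called in the main fit was never among them. Under those turns the calls against 0 were 22 to 27 (22 to 24 of them among the 24), and the NOG2 intron passed under 4 of the turns (adjusted p = 0.0468 or 0.0488). The comparison with Fhl1 had 0 calls under all 20 alternatives, and 21 to 334 probes were below an unadjusted p of 0.05. Without centring, the large-subunit median was 1.40 and the small-subunit median 1.17; without 1 replicate the latter ran from 0.72 to 0.92.

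With no array turned, opposite signs were averaged. The large-subunit median was then -0.054, the small-subunit median -0.0084, and 2 RP probes were among the 100 highest. Named probes that changed sign were RPL42B/CHS7 (-0.0097), RPS27B (-0.21), RPL34B (-0.21), RPL2A (-0.40), RPL20B (-0.20), RPS21B/LCB3 (-0.0084), RPS6A (-0.92), RPL16A (-0.16), TDA3/RPL27A (-0.26), YML6/RPS17A (-0.19), RPL17A (-0.39), YGR117C/RPS23A (-0.36), SCM4 (-0.11), TKL2/TEF2 (-0.26), GDH1/YOR376W (-0.020), CAN1/NPR2 (-0.13), MRM1/HIS3 (-0.20), HTB1/HTA1 (-0.10), RAD27/ABF1 (-0.019), IFH1/UCC1 (-0.30), PUT1 (0.38), MSN2 (0.31), CSE4 (0.019), RPC25/LTV1 (0.34), MDM38 (0.62) and YDR061W (0.82).

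Without centring the sign changed at RPS21A (0.26), ARP3/TOR1 (0.18), RAP1 (0.15), RPS28B (0.087), RPL1A (0.056) and RPL15B (0.055). RPS21A also changed with scaled arrays (0.016) and with array weights (0.039). Leaving out 1 replicate at a time, the sign changed at RPS21A (-0.35 to 0.37), PUS7/ESA1 (-0.048 to 0.18), SOK1/TRP1 (-0.28 to 0.41), IFH1/UCC1 (-0.019 to 0.39), CRF1 (-0.88 to 0.31), RPL15B (-0.66 to 0.20), RPL4A (-1.15 to 0.15) and URA3 (-0.79 to 0.0054). None of the probes in this paragraph was called with all arrays, and the cause was not tested.

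With the replicate number as a block, 24 probes were called, all of them the same 24; the block's correlation was -0.004. Deviations of same-numbered arrays from their group means correlated between -0.23 and 0.27. These values cannot decide whether the numbers pair the arrays, since the signs of the Ifh1 rapamycin arrays among them are not settled.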
